A study of Mus musculus with 16 samples.

Results

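Long interspersed elements (LINEs) were examined in the transcriptomes of mouse 2-cell embryos with reduced Suv39h2, using every repeat type whose class was given as LINE in the tables of repeat transcripts. The tables of 3 comparisons together named 165 such types out of 1160 repeat types of all classes, and 161 of them were listed in every table. By name and family they fell into 6 young L1Md types, 33 other LINE-1 (L1) types of rodent lineages (Lx, L1_Mus, L1_Mur, L1VL, L1_MM and L1_ROD), 92 older L1 types, 32 types of the L2, CR1 and RTE families, and 2 types of the Penelope and Dong-R4 families. The mouse L1 types L1MD_T, L1MD_A and L1MD_GF were all listed, each in family L1. Types were chosen by their annotated class, so this is no separate check of the label. The young L1Md group was set by name, so it also holds the older types L1MD_F, L1MD_F2 and L1MD_F3.

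LINE-1 elements are retrotransposons that encode their own RNA-binding protein and reverse transcriptase and spread by copying their RNA into new sites. In the mouse, L1Md types of the T, A and Gf groups hold the youngest copies, some of them still able to move, whereas F types, Lx and the L1M series are progressively older, and L2, CR1 and RTE copies are remnants of ancient elements. Methylation of histone H3 at lysine 9, the mark that SUV39H2 deposits, is one layer of LINE-1 silencing in mouse stem cells. LINE-1 RNA is made again after fertilization, and in mouse embryos it partners with nucleolin and TRIM28 to close the 2-cell programme. The design asks which transcripts differ when Suv39h2 messenger RNA is depleted in the zygote.

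Polyadenylated RNA was sequenced with Smart-seq2, a protocol without strand information, from 3 groups of 2-cell embryos kept in KSOM medium. Zygotes received double-stranded RNA against Suv39h2 (knockdown, 6 libraries), double-stranded RNA against the bacterial gene LacZ (LacZ control, 6 libraries) or no injection (non-injected, 4 libraries). Fathers of all embryos were DBA and mothers were F1 hybrids of C57BL/6J and CBA/H. The design text speaks of pools of 5 embryos and the extraction label of single ones, and a label on Suv39h1 messenger RNA matches none of the 3 groups. The tables held the authors' comparisons only, with a mean over libraries for each repeat type, so values and depth of single libraries are unknown. Which group is the numerator is left unnamed in the tables of repeats. It was taken from major satellite RNA, which moved in the same direction in the gene tables in 11, 11 and 10 of 11 satellite genes, and every direction given for a LINE type rests on that reading. The precision of each value is given by its deposited standard error. Nothing in the labels says that libraries of a group came from separate matings, so p-values measure the spread between these libraries, which may be technical. Suv39h2 (ENSMUSG00000026646.16, GRCm38 chromosome 2, 3455815 to 3475031) fell by 1.95 ± 0.28 on the log2 scale (± is the standard error throughout) in knockdown over LacZ control (adjusted p = 4.72e-08 by DESeq2) in the authors' deposited table. All 10 genes listed as markers of the 2-cell stage were detected, at mean normalized counts of 13.98 (Duxf3) to 2987 (Zfp352). Of 12 markers of cumulus and granulosa cells 6 had mean counts under 1, and their summed mean count of 468 came mainly from Amhr2 at 407. The 6 sperm transcripts summed to 13.6.

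LINE types made up a modest share of the repeat signal. Their mean normalized counts summed to 7.95% of those of all repeats in the table of knockdown and LacZ control, to 8.30% with knockdown and non-injected libraries, and to 8.42% with LacZ control and non-injected libraries. Within the LINE total of the first of these tables, the 33 other rodent L1 types held 62.1%, older L1 types 22.0%, young L1Md types 11.1%, and L2, CR1 and RTE types 4.05%. L1MD_F2 alone held 68.7% of the L1Md counts. These are shares of counted reads and were not divided by the length or copy number of a type, so they do not rank how strongly copies are transcribed. A read in a LINE copy inside an intron or untranslated region of a gene cannot be told from a read of a LINE transcript in these tables. Related L1 types also share sequence, and the sources used here do not give how reads with several possible origins were counted. Members are therefore not independent of each other.

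In knockdown over LacZ control embryos no LINE type was called. In the authors' deposited table the young L1Md types all lay within 0.26 of 0 in log2 fold change, with 4 of 6 below 0. The most negative LINE values were those of sparsely counted types, and the 33 other rodent L1 types had values below 0 in 28 cases. Of all 1151 repeats 617 lay below 0. DESeq2 gave 0 calls at an adjusted p under 0.05 among 140 LINE types with an adjusted p, against 0.35% called among all 858 such repeats. With no adjustment, 9 LINE types had a p under 0.05 and were lower and 2 were higher, 6.71% of 164, against 6.69% of all 1151 repeats (3.91% lower and 2.78% higher). Adjustment over the repeats alone also gave 0 calls.

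The 3 L1Md types that hold the youngest copies stood close to 0 in this comparison. L1MD_T, with a mean normalized count of 2524, was at -0.14 ± 0.15 in knockdown over LacZ control (adjusted p = 0.731) in the authors' deposited table. L1MD_A (mean count 3573) was at 0.06 ± 0.15 (adjusted p = 0.907) in the authors' deposited table. L1MD_GF (mean count 735) was at 0.06 ± 0.20 (adjusted p = 0.947) in the authors' deposited table. Normal 95% intervals from the deposited standard errors ran from -0.43 to 0.15 for L1MD_T, from -0.24 to 0.35 for L1MD_A and from -0.33 to 0.44 for L1MD_GF. No interval reached 1 on the log2 scale in either direction, so a doubling or halving of these types was outside the interval, while differences inside it were not detectable at this precision. In RNA of whole embryos, fewer cells with a transcript and less of it per cell cannot be told apart.

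The F types of L1Md, older relatives of the T, A and Gf types, gave similar values. L1MD_F was at -0.24 ± 0.14 in knockdown over LacZ control (adjusted p = 0.418) in the authors' deposited table, the smallest p among the L1Md types. L1MD_F2 stood at -0.11 ± 0.19 and L1MD_F3 at -0.26 ± 0.21 (adjusted p = 0.859 and 0.650) in the authors' deposited table. The median of the 6 types was -0.13, against -0.02 over all 1151 repeats with a p-value. None of the 6 differences exceeded its own error beyond the threshold.

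**Figure D1:**
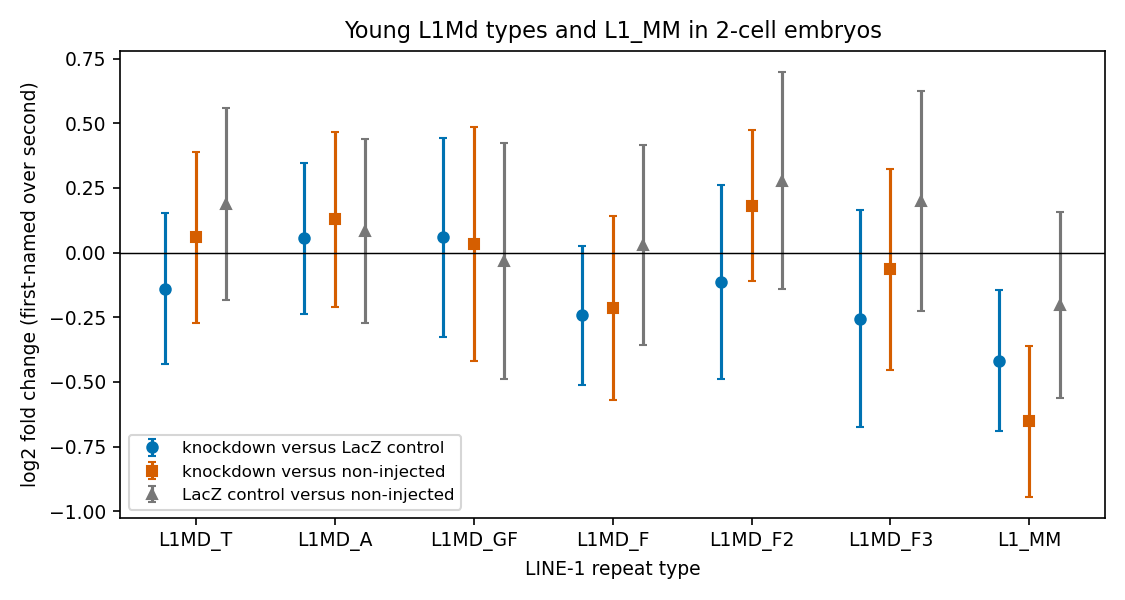
Deposited log2 fold change (y axis, first-named group over second) of the 6 young L1Md types and of L1_MM (x axis) in 3 comparisons, with 95% intervals as bars. The bars of all 6 L1Md types cross 0 in each comparison, whereas those of L1_MM lie below 0 in both comparisons of knockdown embryos (-0.42 and -0.65).

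Rodent L1 types other than L1Md leaned below 0 in knockdown over LacZ control, with a median of -0.12 and a range of -0.52 to 0.27, and the median stayed below 0, at -0.11, after centring on the median of all repeats. L1_MM, a mouse-lineage type with a mean normalized count of 1647, was at -0.42 ± 0.14 in the authors' deposited table, the smallest p of the group (unadjusted 0.00246, adjusted p = 0.106). L1_ROD had the most negative value, -0.52 ± 0.23 (adjusted p = 0.304) in the authors' deposited table, and LX5C the most positive, 0.27 ± 0.23 (adjusted p = 0.678). LX9, the type with the most counts (21074), stood at -0.08 ± 0.21 (adjusted p = 0.924) in the authors' deposited table. None of the 33 types was called, and all 33 intervals lay within 1 of 0 on the log2 scale.

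Older L1 types scattered on both sides of 0, with 50 of 92 below it and a median of -0.02 in knockdown over LacZ control. The extremes were types with few counts. L1ME3C (mean normalized count 26.5) was at 0.95 ± 0.31 and L1M3F (mean normalized count 14.7) at -0.80 ± 0.33 (adjusted p = 0.106 and 0.245) in the authors' deposited table. L1M2, the most counted older type at 9500.4, stood at -0.41 ± 0.20 (adjusted p = 0.330) in the authors' deposited table. L2, CR1 and RTE types had a median of -0.0047, which was 0.012 on centring, between -0.70 for X7B_LINE and 0.37, and 15 of 31 had no adjusted p. L2A, the best-counted of them at 3118, was at 0.13 ± 0.15 (adjusted p = 0.775) in the authors' deposited table. X7B_LINE, a CR1 type with a mean count of 55.5, stood at -0.70 ± 0.30 (adjusted p = 0.273) in the authors' deposited table, and L4_B_MAM, an RTE type with a mean count of 22.6, at 0.37 ± 0.30 (adjusted p = 0.598).

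Between knockdown and non-injected embryos 5 LINE types were called, 3 lower and 2 higher, and none of them was a young L1Md type. L1_MM, L1ME2 and L1M2 fell, and L1MDB and PENELOPE1_VERT rose, by 0.50 to 0.82 in log2 fold change by the authors' deposited table. The calls came to 3.62% of the 138 LINE types with an adjusted p, below the 6.62% called among all 861 such repeats. By direction, 3.6% of all repeats were called higher and 3.02% lower. With no adjustment, 9 LINE types were higher and 6 lower at a p under 0.05, 9.20% of 163, against 11.5% of all 1143 repeats (6.65% higher and 4.81% lower). This comparison differs in the injection as well as in the target, since non-injected embryos received no double-stranded RNA.

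L1_MM was the LINE type with the smallest p. Its level was 1.57-fold lower in knockdown embryos, with a log2 fold change over non-injected embryos of -0.65 ± 0.15 (adjusted p = 0.000439) in the authors' deposited table. Adjusted over the repeats alone the p was 0.00260. The same type was at -0.42 ± 0.14 in knockdown over LacZ control and at -0.20 ± 0.18 in LacZ control over non-injected in the authors' deposited table, neither called (adjusted p = 0.106 and 0.779). These comparisons share libraries and are not independent of each other.

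L1MDB belongs with L1MD1 to L1MD3 and similar names, ancient mammalian elements that are distinct from the mouse L1Md types despite the name. It stood at 0.82 ± 0.19 in knockdown over non-injected embryos (mean normalized count 314, adjusted p = 0.000706) in the authors' deposited table, a 1.77-fold difference. Adjustment over the repeats alone gave 0.00339. Its values were 0.34 ± 0.22 in knockdown over LacZ control and 0.39 ± 0.25 in LacZ control over non-injected (adjusted p = 0.473 and 0.645) in the authors' deposited table.

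The other called types were weaker. L1ME2, an old L1, was at -0.59 ± 0.19 and L1M2 at -0.50 ± 0.17 in knockdown over non-injected embryos (adjusted p = 0.0121 and 0.0267) in the authors' deposited table. PENELOPE1_VERT, of a retroelement family filed under LINE in this annotation but distinct from L1, was at 0.57 ± 0.17 (adjusted p = 0.0104) in the authors' deposited table. All 3 lost the call when p-values were adjusted over the repeats alone, at 0.0587 for L1ME2, 0.119 for L1M2 and 0.0535 for PENELOPE1_VERT. That adjustment ran over all 1143 repeats with a p-value, including 282 with no deposited adjusted p. Adjustment over the repeats with a mean count of 100 or more gave 4 LINE calls. In LacZ control over non-injected embryos L1ME2 was at -0.36 ± 0.18 and PENELOPE1_VERT at 0.49 ± 0.19 in the authors' deposited table, while L1M2 was at -0.05 ± 0.21 (adjusted p = 0.454, 0.310 and 0.969).

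**Figure D2:**
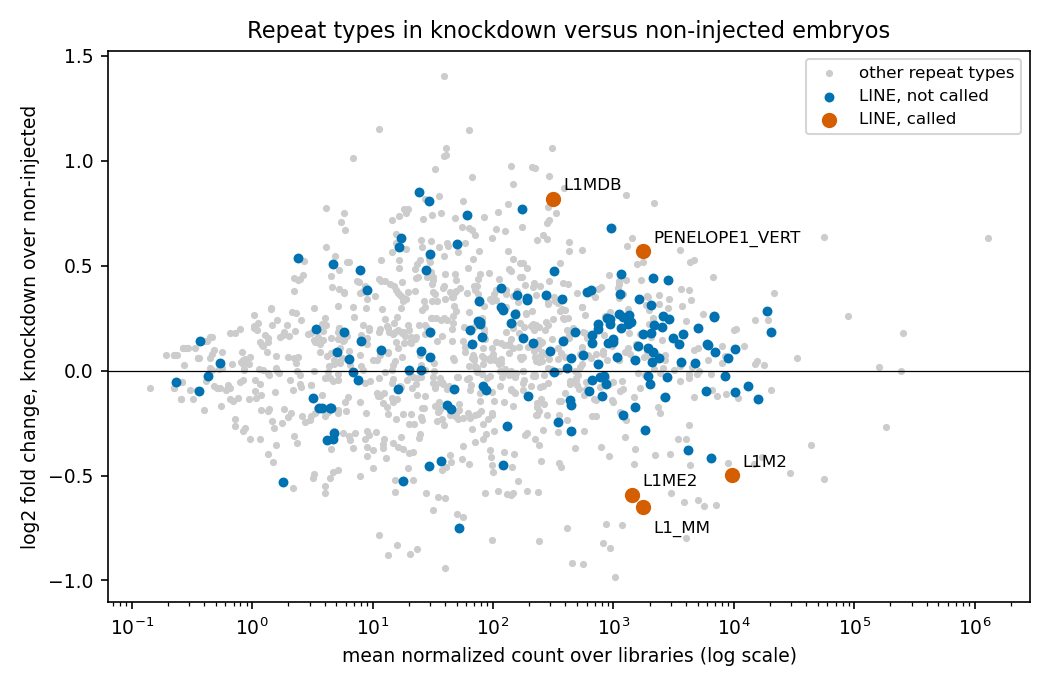
Deposited log2 fold change of knockdown over non-injected embryos (y axis) against the mean normalized count over libraries (x axis, log scale), 1 point for each repeat type. The 5 called LINE types lie between 0.50 and 0.82 away from 0, at mean counts of 314 to 9591, and the other LINE points lie inside the cloud of other repeat types.

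Young L1Md types were again near 0 in knockdown over non-injected embryos. L1MD_T was at 0.06 ± 0.17, L1MD_A at 0.13 ± 0.17 and L1MD_GF at 0.03 ± 0.23 (adjusted p = 0.857, 0.654 and 0.965) in the authors' deposited table. L1MD_F2 had the highest value of the 6, 0.18 ± 0.15, and L1MD_F the lowest, -0.21 ± 0.18, (adjusted p = 0.418 and 0.446) in the authors' deposited table. L1MD_F3 was at -0.07 ± 0.20 (adjusted p = 0.864) in the authors' deposited table. Their median was 0.05, and -0.03 after centring on the median of all repeats, which was 0.08 in this table.

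The remaining groups differed in where their medians lay. Other rodent L1 types had a median of 0.05, which became -0.02 on centring, and LX3_MUS had their highest value, 0.43 ± 0.18 (adjusted p = 0.0808) in the authors' deposited table. Older L1 types had a median of 0.17 with 67 of 90 above 0, and 59 of 90 above the median of all repeats. L1M7, with a mean normalized count of 24.4, had the highest value of them at 0.85 ± 0.42 (adjusted p = 0.139) in the authors' deposited table. For L2, CR1 and RTE types the median was 0.0057, or -0.07 on centring. Among those types PLAT_L3 was at 0.56 ± 0.36 and X7B_LINE at -0.75 ± 0.32 (adjusted p = 0.361 and 0.0900) in the authors' deposited table.

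**Figure D3:**
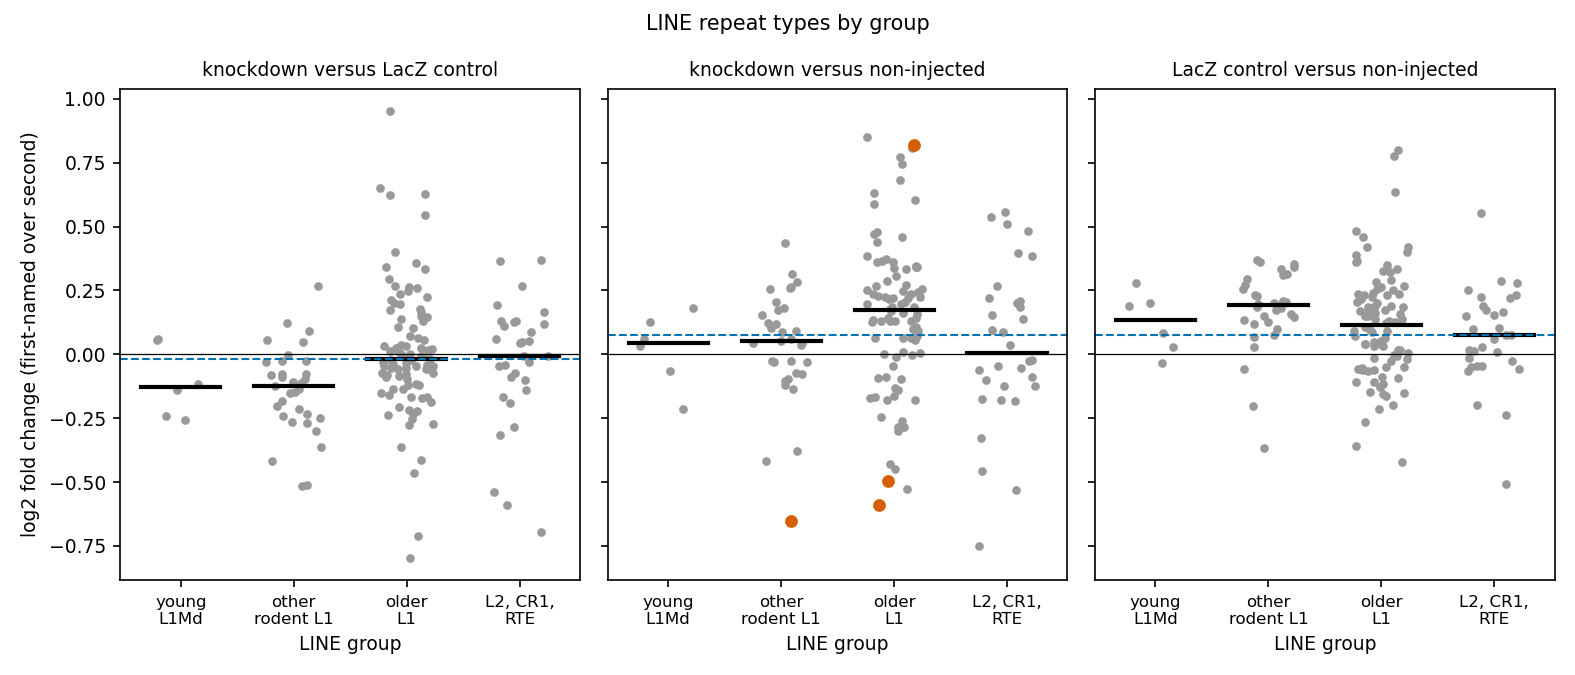
Deposited log2 fold change (y axis, first-named group over second) of each LINE type in the 4 main groups (x axis, Penelope and Dong-R4 types not drawn) in 3 comparisons, with called types in orange, group medians as black bars and the median of all repeats as a dashed line. Young L1Md and other rodent L1 medians lie at -0.13 and -0.12 in knockdown over LacZ control and at 0.14 and 0.19 in LacZ control over non-injected, and the 4 called types drawn are all in knockdown over non-injected.

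Injection of LacZ double-stranded RNA gave 0 called LINE types by DESeq2 among 150 with an adjusted p, as for all 943 such repeats (0% called), and 0 with adjustment confined to repeats. With no adjustment, 5 LINE types were higher and 2 lower at a p under 0.05, 4.27% of 164, against 3.34% of all 1139 repeats (2.55% higher and 0.79% lower). Values leaned upward, with 120 of 164 above 0 and a median of 0.14 against 0.08 for all repeats, and 98 of 164 lay above the median of all repeats. Of the 33 other rodent L1 types 30 were above 0, with a median of 0.19 that was 0.12 after centring. These are the same LacZ control libraries against which 28 of the 33 were below 0 in knockdown embryos, so both counts rest partly on those libraries.

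L1MD_F2 was at 0.28 ± 0.21, L1MD_F3 at 0.20 ± 0.22 and L1MD_T at 0.19 ± 0.19 in LacZ control over non-injected embryos (adjusted p = 0.732, 0.828 and 0.807) in the authors' deposited table. L1MD_A stood at 0.08 ± 0.18, L1MD_F at 0.03 ± 0.20 and L1MD_GF at -0.03 ± 0.23 (adjusted p = 0.935, 0.982 and 0.980) in the authors' deposited table. The median of the 6 L1Md types was 0.14, and 0.06 after centring. Among other rodent types L1_MUS1 had the highest value, 0.37 ± 0.21, and LX5C the lowest, -0.37 ± 0.20, (adjusted p = 0.559 and 0.534) in the authors' deposited table. Among older types L1M3F was at 0.80 ± 0.33 and L1M6 at -0.42 ± 0.33 (adjusted p = 0.329 and 0.720) in the authors' deposited table. X7C_LINE, a CR1 type with a mean normalized count of 279, had the smallest p of all LINE types, at 0.55 ± 0.20 (unadjusted 0.00480, adjusted p = 0.225) in the authors' deposited table.

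The L1 series was split further by name, and no order among the sets was tested. In knockdown over LacZ control the medians of the authors' values were -0.19 for 4 L1_Mus types, -0.15 for 3 L1_Mur types, -0.12 for 3 L1VL types and -0.09 for 21 Lx types. All 10 of the L1_Mus, L1_Mur and L1VL types lay below 0, as did 617 of all 1151 repeats. L1_MUR1, at -0.0011, was above the median of all repeats, -0.017. Along the mammalian series the medians were -0.07 for L1MA, -0.01 for L1MB, -0.08 for L1MC, -0.05 for L1MD1 to L1MDB and 0.05 for L1ME, where 18 of 27 types were above 0. The 4 HAL1 types, L1 relatives that lack part of the element, had a median of 0.30.

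In knockdown over non-injected embryos the same mammalian series had medians of 0.06, 0.20, 0.21, 0.26 and 0.24. Every one of the 7 L1MB types, the 6 types L1MD1 to L1MDB and the 4 HAL1 types lay above 0 there, though L1MDB was the only one of them called. Of all repeats 61.2% lay above 0 there, with a median of 0.076, and L1MB1 was below that median at 0.073. In LacZ control over non-injected embryos the medians of the series were 0.13, 0.15, 0.22, 0.28 and 0.12. All 7 L1MB types and all 6 of L1MD1 to L1MDB were above 0 in that table too, while the HAL1 median was -0.06. Of all repeats 66.9% lay above 0 in it, with a median of 0.075, and L1MB2 was below that median at 0.033. CR1 types had medians of -0.01, -0.05 and 0.10 in the 3 comparisons, L2 types 0.05, 0.09 and 0.02, and RTE types -0.04, -0.03 and 0.03, each smaller than the median standard error of the L2, CR1 and RTE types (0.28, 0.32 and 0.26).

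**Figure D4:**
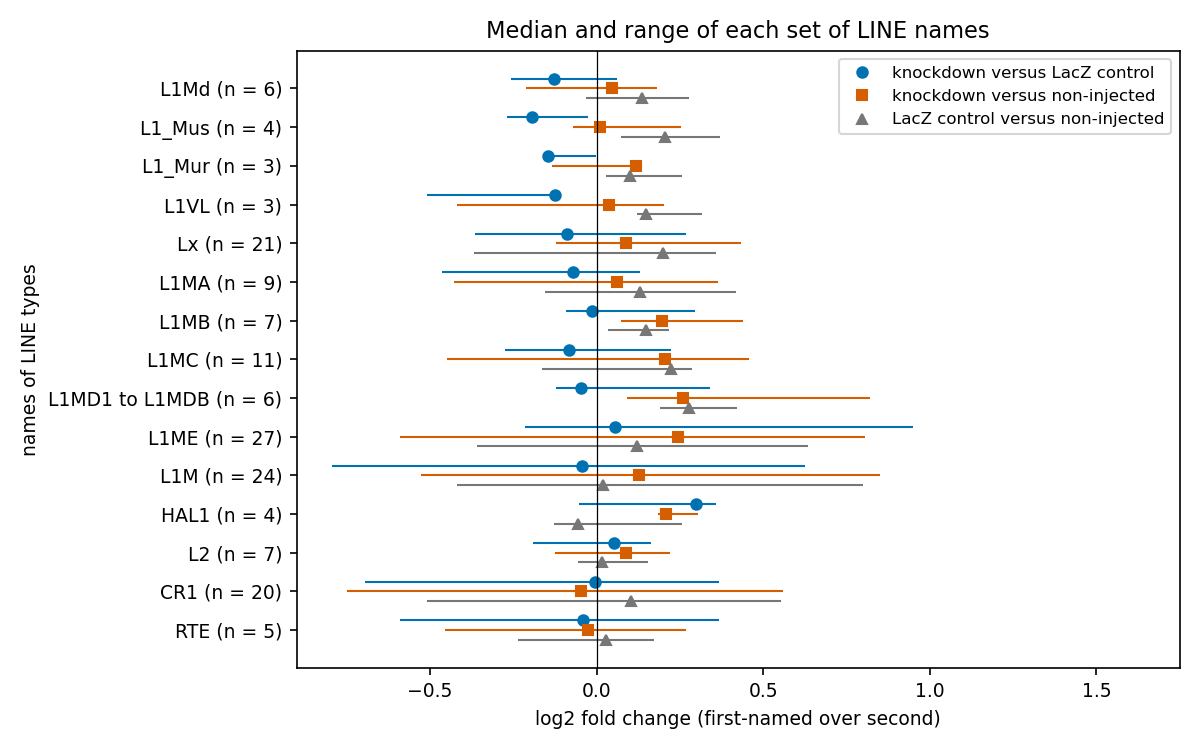
Median (symbol) and full range (line) of the deposited log2 fold change (x axis, first-named group over second) for each set of LINE names (y axis, with the number of types) in 3 comparisons. L1_Mus, L1_Mur and L1VL ranges lie below 0 in knockdown over LacZ control and above 0 in LacZ control over non-injected, and L1MB and L1MD1 to L1MDB ranges lie above 0 in both comparisons with non-injected embryos. Medians of all repeats, not drawn, were -0.017 in knockdown over LacZ control, 0.076 in knockdown over non-injected and 0.075 in LacZ control over non-injected. Some of the ranges named extend past them.

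Medians of the other repeat classes were set beside those of LINEs. In knockdown over LacZ control the median was -0.042 for LINE, -0.038 for LTR, 0.01 for SINE and 0.04 for DNA types. The 6 satellite types had a lower median, -0.22. In knockdown over non-injected embryos the median was 0.13 for LINE, 0.06 for LTR, 0.02 for SINE, 0.13 for DNA and -0.10 for satellite types. The share called there was 3.62% for LINE, 7.54% for LTR, 5.56% for SINE and 4.2% for DNA types, and 2 of 5 satellite types with an adjusted p were called. In LacZ control over non-injected embryos the median was 0.14 for LINE, 0.08 for LTR, 0.02 for SINE, 0.06 for DNA and 0.08 for satellite types. Whether the classes differ in median or share was not tested, because types of a class are not independent.

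Genes known to silence LINE-1 chromatin, to restrict LINE-1 RNA or to bind it were described alongside, from a list of 67 that were all matched in the gene tables. In knockdown over LacZ control 2 of 63 with an adjusted p were called, both lower, against 0.899% called and 0.533% called lower among all 15572 genes. They were Suv39h2 itself and Pabpc1, a poly(A)-binding protein that joins the LINE-1 RNA particle in human cells, at -0.76 ± 0.21 (adjusted p = 0.0364) in the authors' deposited table. Pabpc1 was not called with adjustment over every gene with a p-value, which left 1 call. The median of the list was -0.17, against 0.02 over all genes with an adjusted p, and 43 of 66 genes with a value lay below 0. With no adjustment 21 of the 66, Suv39h2 included, had a p under 0.05, as did 2284 of the 15572 genes with an adjusted p. The list was better counted than those genes, with a median mean count of 379 against 97.9.

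In knockdown over non-injected embryos 13 of 63 host factor genes were called, 10 lower and 3 higher, against 15.2% of all 14948 genes (7.76% lower and 7.41% higher). With no adjustment 23 genes of the list had a p under 0.05, as did 4333 of the 14948 genes. Among the silencers, the HUSH complex subunits Fam208a (-1.16 ± 0.24, adjusted p = 0.000198) and Pphln1 (-0.84 ± 0.25, adjusted p = 0.0132) and the HUSH-associated ATPase Morc2a (-0.88 ± 0.24, adjusted p = 0.00384) fell in the authors' deposited table. The HUSH subunit gene Mphosph8 was not called, at -0.08 ± 0.24 (adjusted p = 0.853), so the subunits did not move together. Its exons overlap those of Gm16973 on the opposite strand. In knockdown over non-injected embryos Suv39h2 fell by 1.79 ± 0.29 and the H3K9 methyltransferase gene Ehmt1 by 0.66 ± 0.21 (adjusted p = 2.21e-06 and 0.0191) in the authors' deposited table. Cbx1, which encodes the heterochromatin protein HP1 beta, rose by 1.05 ± 0.24, and Dnmt3l, a cofactor of de novo DNA methylation, by 0.65 ± 0.18 (adjusted p = 0.000779 and 0.00700) in the authors' deposited table. In all, 5 of the 24 chromatin silencers were called lower and 2 higher, with a median of -0.29 against 0.05 over all genes. The 5, and the 10 called lower on the whole list, include Suv39h2, the target of the injected double-stranded RNA.

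Of 29 genes that restrict LINE-1 RNA or its copies 26 had an adjusted p in knockdown over non-injected embryos, and 2 of these were called lower and 1 higher. Of 14 partners of that RNA 13 had one, and 3 of these were called lower. Among all 14948 genes 7.76% were called lower and 7.41% higher. Piwil1, a PIWI protein of the germ line, rose by 1.35 ± 0.29 in knockdown over non-injected embryos, while its relative Piwil2 fell by 0.62 ± 0.23 (adjusted p = 0.000366 and 0.0477) in the authors' deposited table. Ythdc1, a nuclear reader of methylated adenosine that acts on LINE-1 RNA in mouse stem cells, was at -0.93 ± 0.31 (adjusted p = 0.0335) in the authors' deposited table. Ncl, which encodes the LINE-1 RNA partner nucleolin, fell by 0.69 ± 0.19 (adjusted p = 0.00539) in the authors' deposited table. Pabpc1 fell by 0.85 ± 0.22 and the nuclear RNA-binding gene Hnrnpu by 0.84 ± 0.28 (adjusted p = 0.00280 and 0.0282) in the authors' deposited table. Calls of Ythdc1, Piwil2 and Hnrnpu ended with adjustment over every gene (0.0677, 0.0963 and 0.0570). Exons of Fam208a, Morc2a, Dnmt3l, Hnrnpu and Suv39h2 overlap exons on the opposite strand (Ccdc66, Tug1, Aire, Cox20, and Dclre1c with Gm13184), and Ehmt1, Ythdc1 and Ncl overlap annotated transcripts on their own strand, so these values are uncertain.

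LacZ control and non-injected embryos had 0 called genes on this list by DESeq2 and 6 with an unadjusted p under 0.05, where 0.792% of 29288 genes were called and 6.55% of all genes had such a p. The smallest p-values belonged to Piwil1 (0.73 ± 0.29, adjusted p = 0.383), Cbx1 (0.56 ± 0.25, adjusted p = 0.488) and Ehmt1 (-0.50 ± 0.22, adjusted p = 0.489) in the authors' deposited table. Markers of the 2-cell stage moved beside these comparisons. In knockdown over non-injected 5 of 10 were called higher, where 7.41% of all genes with an adjusted p were. In LacZ control over non-injected 2 of 10 were called higher, where 0.529% of all such genes were. In knockdown over LacZ control 0 of 10 were called, where 0.899% of all such genes were called in either direction. Medians of the 10 markers were 0.79, 0.62 and -0.05 in that order. Their part in the LINE values was not tested.

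**Figure D5:**
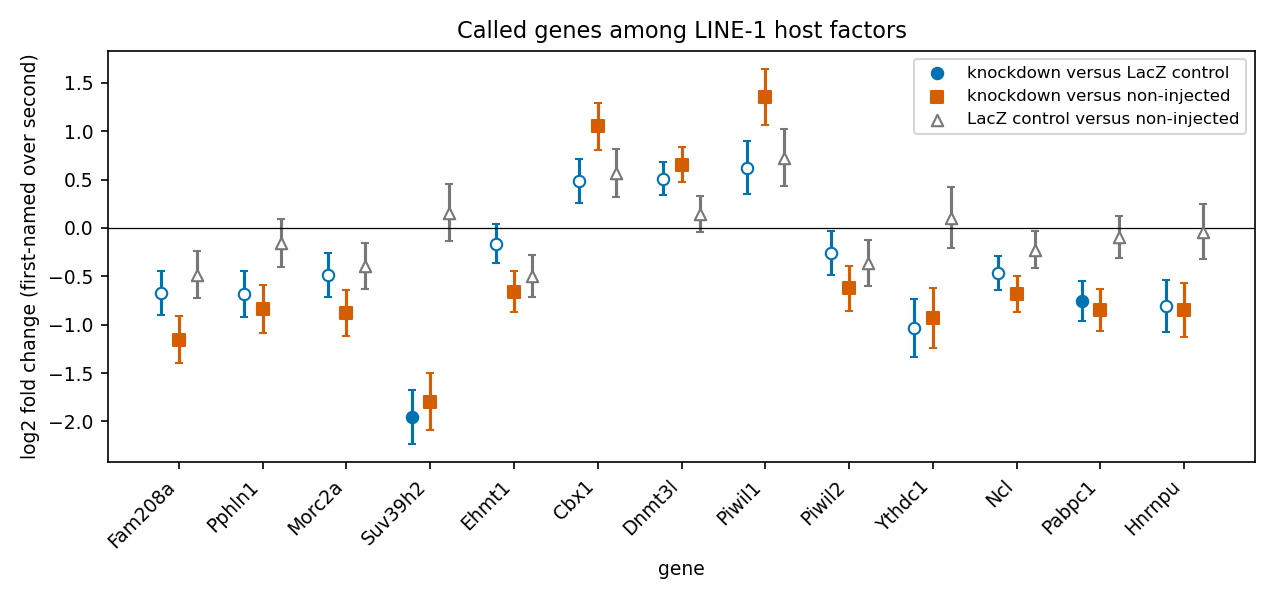
Deposited log2 fold change with standard error (y axis, first-named group over second) of the 13 host factor genes called in at least 1 comparison (x axis), with filled symbols where the gene was called. Suv39h2 and Pabpc1 are filled in knockdown over LacZ control, all 13 genes in knockdown over non-injected, and none in LacZ control over non-injected.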

How the data were processed

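The deposited values were 6 tables of the authors' own comparisons, of genes and of repeats for 3 pairs of groups. Per the submitters' processing notes, STAR 2.5.2b, SAMtools, HTSeq 0.9.1, DESeq2 1.18.1 and GRCm38.p5 were used; RUVSeq and shrinkage of fold changes appear solely in table names. Columns per the file headers are the mean normalized count (a signal), the log2 fold change with its standard error, the Wald statistic (a score) and p-values before and after adjustment. The sources used here do not give how repeat reads were assigned. No table had columns of single libraries (0 such columns), so every test is the authors' DESeq2 Wald test, and a call is a deposited adjusted p under 0.05. The deposited adjusted p-values of the repeats differ from Benjamini-Hochberg values over the repeats with one by up to 0.217, 0.218 and 0.574. Shrinkage pulls poorly counted types towards 0.

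The repeat tables do not state the direction of their fold changes. The group named second was taken as the numerator, because 11, 11 and 10 of 11 genes made of major satellite sequence then have the sign of the satellite repeat in the 3 comparisons. This reading was not stated by the authors. For the 161 LINE types in every table the values for knockdown over LacZ control and LacZ control over non-injected summed to those for knockdown over non-injected with a median absolute difference of 0.016. The largest absolute difference was 0.256. This sum would hold equally with the signs of all 3 comparisons reversed, so it does not settle the direction.

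Own computations (Python 3.11.15, pandas 2.3.3) were counts, medians, intervals and Benjamini-Hochberg adjustment, tested on simulated data. Gene symbols came from GENCODE vM21 on GRCm38 (49326 of 49585 identifiers). Named types are all L1MD_ types, every called type, and in each comparison and group the largest rise and largest fall among types with an adjusted p and the highest mean count. The members and lists were chosen with earlier results of these data known. MUSHAL1 counts as older L1 by its name. Alternatives were other adjustments, thresholds, a mean count minimum of 100 and centring on all repeats.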

Additional observations from a re-analysis of the deposited data

How the results depend on the processing

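The 0 called LINE types in knockdown over LacZ control and in LacZ control over non-injected stayed 0 with adjustment over the repeats alone, at thresholds of 0.10 and 0.01, and with a mean count of 100 or more. In knockdown over non-injected the 5 calls became 2 with adjustment over the repeats alone, 4 with adjustment over the repeats with a mean count of 100 or more, 10 at a threshold of 0.10 and 2 at 0.01. Of the host factor genes called in knockdown over LacZ control, 1 of 2 was left with adjustment over every gene. Group medians moved by less than the median standard error of their members under every alternative tried, which is not the error of a median. Medians near 0 changed sign on centring. In knockdown over non-injected young L1Md went from 0.05 to -0.03, other rodent L1 from 0.05 to -0.02, and L2, CR1 and RTE from 0.0057 to -0.07. With a mean count of 100 or more the last of these was 0.15. L2, CR1 and RTE also changed sign on centring in the other comparisons. No called LINE type changed direction on centring, but a shift of 0.08 was too small to reverse values 0.50 to 0.82 from 0. Among the 25 named types, 2 that were not called changed sign on centring in knockdown over non-injected, and 3 in LacZ control over non-injected. The deposited Wald statistic and the shrunken fold change differed in sign for 6, 2 and 1 LINE types, none beyond 0.19 on the log2 scale. No paired analysis was possible because the tables hold no values of single libraries, and neither the replicate block nor leaving out replicates was run for the same reason. Depth limits the 24, 25 and 14 LINE types that have a p-value but no adjusted one.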

Other observations

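The relation of fold change to counts differed among the tables. Across LINE types, which share libraries and in part sequence, Spearman's rho between mean normalized count and log2 fold change was -0.22 in knockdown over LacZ control (164 types), 0.03 in knockdown over non-injected (163 types) and 0.31 in LacZ control over non-injected (164 types). Of the LINE types with a mean count of 1000 or more, 42 of 60 lay below 0 in knockdown over LacZ control, 41 of 58 above 0 in knockdown over non-injected, and 55 of 60 above 0 in LacZ control over non-injected, with medians of -0.08, 0.12 and 0.18. In these well-counted types every 95% interval lay within 1 of 0 on the log2 scale in each table. Among all repeats with a p-value, of any mean count, 46.4%, 61.2% and 66.9% lay above 0 in the same order of comparisons. Their medians were -0.02, 0.08 and 0.08.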
